A study of Mus musculus with 23 samples.

Results

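Regulators of G protein signaling (RGS proteins) end the response of a cell to neurotransmitters and hormones. Receptors on the cell surface switch on heterotrimeric G proteins by loading their alpha subunits with GTP, and an RGS protein speeds up the hydrolysis of that GTP, so that the signal stops sooner. In the hippocampus, a brain region needed for learning and memory, they act downstream of muscarinic, metabotropic glutamate, serotonin, opioid and GABA-B receptors. The genes described here, 10 in number and taken by symbol, are Rgs2, Rgs4, Rgs8 and Rgs16 of the small R4 subfamily, Rgs17 and Rgs20 of the RZ subfamily, Rgs6 and Rgs7 of the R7 subfamily, and Rgs10 and Rgs12 of the R12 subfamily. All 10 were found among the 51912 genes of the tables, and all 10 passed the filter on low values in every comparison. Rgs17 and Rgs4 were proposed for description because they stood among the leading genes of the comparison of exercised with sedentary fathers, so the values of that comparison are given for the 10 genes as a description, without a test.

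Hippocampal RNA of wild type males of the inbred mouse strain C57BL/6 was measured in 23 libraries. The exercised fathers (n = 4) were trained on a treadmill, with 40 minutes of running each day during 6 weeks, the sedentary fathers (n = 4) had no access to exercise, and both were 7 months old. Offspring at 5.5 months of age descended from exercised fathers (n = 7) or from sedentary fathers (n = 8), and the labels give no exercise for either. No group carries a transgene or deletion in the labels, which do not say whether libraries are separate animals or which father an animal descends from. The p-values thus measure only the spread between these libraries, which may be technical.

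Reads assigned to genes, as recovered from the normalized counts, numbered between 33667580 and 55172616 per library. The values are the authors' normalized counts, which are read counts divided by 1 size factor per library. Camk2a and Slc17a7, which mark excitatory neurons of the forebrain and not of the hippocampus alone, were abundant in every library. Camk2a lay between 140244 and 202296 and Slc17a7 between 53536 and 66416 normalized counts. Libraries also differed in RNA of tissue next to the hippocampus. All 10 markers of choroid plexus were measured, and their summed level ranged from 52646 to 190944 normalized counts in exercised fathers and from 2507 to 182599 in sedentary fathers, from 3656 to 205843 in offspring of exercised fathers and from 3137 to 186885 in offspring of sedentary fathers. All 12 markers of thalamus and habenula were measured too, and their summed level ranged from 9687 to 13721 in exercised fathers and from 9629 to 23419 in sedentary fathers, from 8131 to 12100 in offspring of exercised fathers and from 9740 to 13758 in offspring of sedentary fathers. For the 6 neocortex markers the sums were 8414 to 9552 in exercised fathers and 8861 to 10480 in sedentary fathers, 8567 to 12351 in offspring of exercised fathers and 8851 to 11859 in offspring of sedentary fathers. No marker of these 3 lists was at 0 throughout a group. In bulk tissue, fewer cells of a type and less RNA per cell cannot be told apart.

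Rgs4, Rgs17 and Rgs8 were lower in every exercised father than in any sedentary father. Rgs4, which acts on Gi/o and Gq alpha subunits and is abundant in forebrain neurons (ENSMUSG00000038530.11, GRCm38 chromosome 1, 169741477 to 169747642, minus strand), had 5594, 5355, 5096 and 5254 normalized counts in exercised fathers, against 6203, 6174, 6417 and 7151 in sedentary fathers. The highest exercised father lay below the lowest sedentary father. The difference was -0.28 on the log2(normalized count + 1) scale, with means of 5325 ± 209 in exercised fathers and 6486 ± 456 in sedentary fathers (± SD, n = 4 per group), which is -17.9% relative to the sedentary mean. It ranged from -0.35 to -0.22 over 24 ways of processing or leaving out libraries.

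Rgs17, an RZ member known for acting on Gz and other Gi/o alpha subunits (ENSMUSG00000019775.17, chromosome 10, 5825663 to 5922400, minus strand), had 3249, 3271, 3357 and 3486 normalized counts in exercised fathers, against 3784, 3956, 3841 and 3888 in sedentary fathers. Both groups were narrow and did not overlap. The means were 3341 ± 107 in exercised fathers and 3867 ± 72.8 in sedentary fathers (± SD, n = 4 per group), a log2 difference of -0.21. With the trend of the differences on GC content taken out, it stood at -0.12. The longest Rgs17 transcript has a GC content of 36.9%. For Rgs4 the same step gave a log2 difference of -0.25.

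Rgs8, an R4 member that shortens Gi/o signals to potassium channels (ENSMUSG00000042671.12, chromosome 1, 153653025 to 153700323, plus strand), had 4095, 4193, 4135 and 4077 normalized counts in exercised fathers, against 4314, 4212, 4601 and 4407 in sedentary fathers. The gap between the groups was narrow, since the lowest sedentary father exceeded the highest exercised father by less than the spread within either group. The log2 difference was -0.09, and -0.05 without the sedentary fathers of replicates 3 and 4. Over all 17493 genes tested, 2.34% were lower with no overlap of the groups, 2.66% were higher with none, and 5.0% did so in either direction. Because the genes were proposed with this contrast in view, nothing is read from 3 of the 10 being lower without overlap.

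The promoters of Rgs4 and Rgs17, the genes with the clearest separation in the fathers, and of Rgs6, which varied with Rgs17 from library to library, are given as the 250 bases before the RefSeq start site (GRCm38.p6), 5′ to 3′ on the gene's strand. The windows are chr1:169747643-169747892 on the minus strand for Rgs4, chr10:5922401-5922650 on the minus strand for Rgs17 and chr12:82617249-82617498 on the plus strand for Rgs6. The Rgs6 window lies inside the annotated gene, which begins at 82588292. That gene has 22 annotated transcripts, and starts other than this one were not examined. Capitals mark matches on either strand to the half-site of the cAMP response element (letters TGACG), the TATA box (letters TATAAA), the CCAAT box (named by its letters) and the GC box (letters GGGCGG), none of which overlap here.
Rgs4: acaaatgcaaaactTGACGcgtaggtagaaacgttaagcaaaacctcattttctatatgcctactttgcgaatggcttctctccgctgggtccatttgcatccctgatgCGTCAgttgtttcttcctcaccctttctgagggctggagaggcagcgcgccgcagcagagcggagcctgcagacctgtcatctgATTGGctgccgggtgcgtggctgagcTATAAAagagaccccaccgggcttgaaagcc
Rgs17: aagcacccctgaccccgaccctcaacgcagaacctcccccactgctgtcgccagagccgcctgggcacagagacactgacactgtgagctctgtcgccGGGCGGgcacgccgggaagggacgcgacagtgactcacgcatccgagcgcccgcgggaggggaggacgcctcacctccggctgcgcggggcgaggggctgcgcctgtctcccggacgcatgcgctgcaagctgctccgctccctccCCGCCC
Rgs6: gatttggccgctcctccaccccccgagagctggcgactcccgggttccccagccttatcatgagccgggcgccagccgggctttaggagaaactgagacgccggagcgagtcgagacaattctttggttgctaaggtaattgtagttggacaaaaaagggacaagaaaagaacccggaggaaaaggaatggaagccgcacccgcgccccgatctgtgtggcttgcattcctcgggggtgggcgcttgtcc

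The 3 promoters were unlike in composition. The Rgs4 window holds a TATA box 31 bases and a CCAAT box 57 bases before the start, and half-sites 141 and 236 bases before it, with 53.6% GC. The Rgs17 window holds GC boxes 152 and 6 bases before the start and none of the other motifs, with 72.4% GC, and the Rgs6 window holds no match, with 59.2% GC. Among 32536 promoter windows of this length, 17.9% hold a half-site, 12.3% a TATA box, 33.8% a CCAAT box and 32.97% a GC box, and the median GC content is 52.4%. Of the 10 genes, 9 have a promoter entry, Rgs8 with 3 windows and Rgs12 with 2, and Rgs20 has none. A match describes the letters only.

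**Figure D1:**
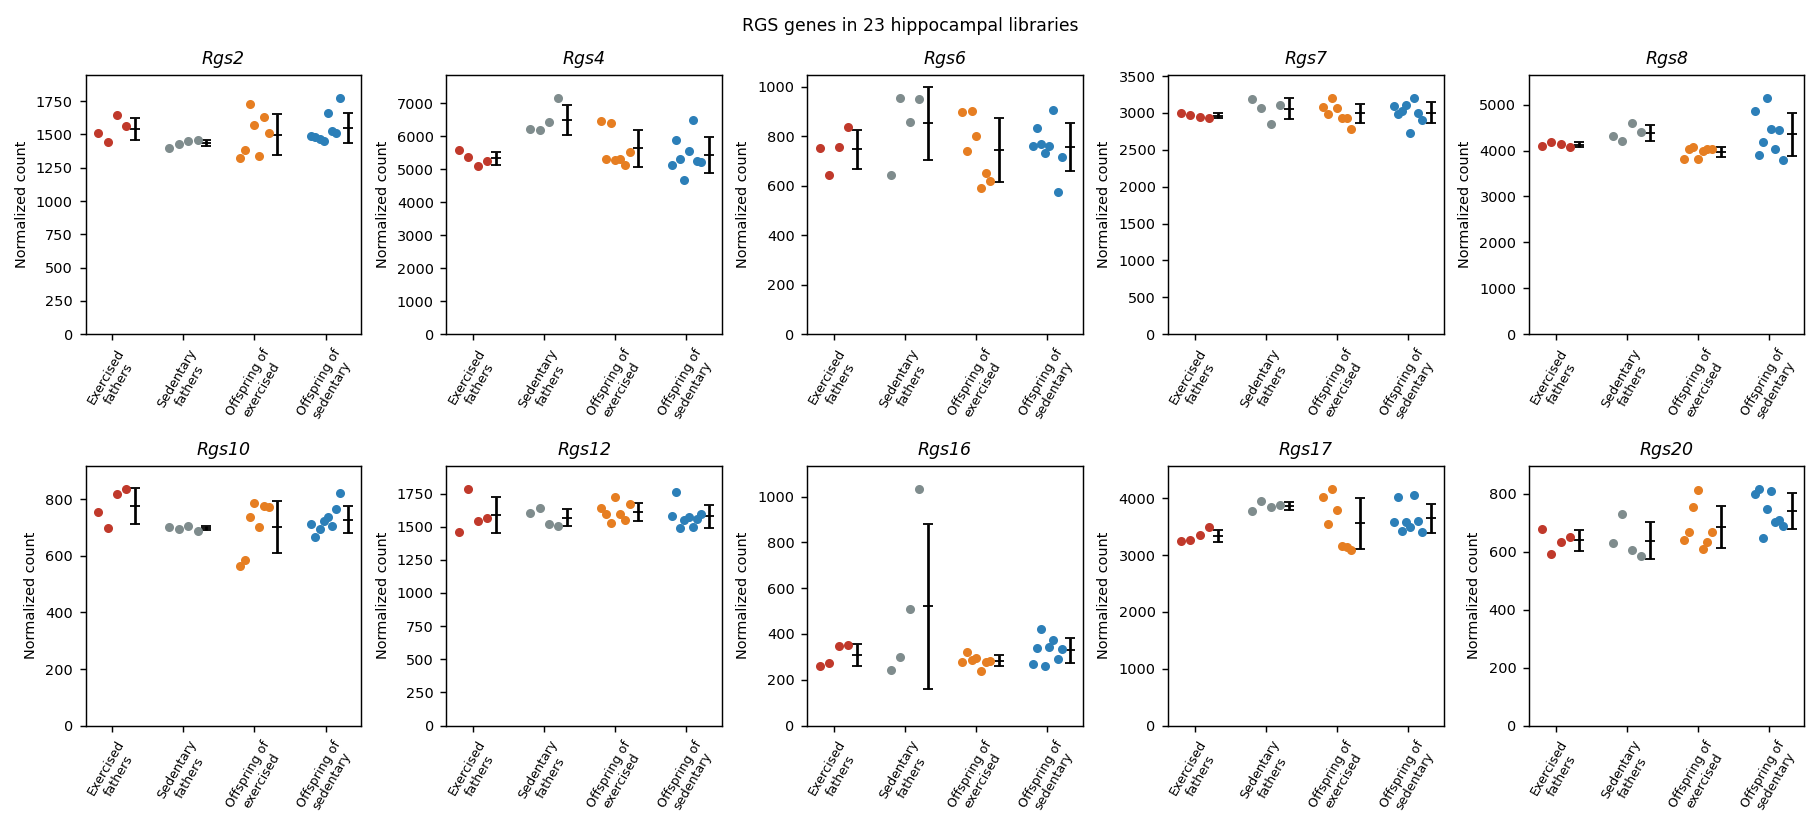
Normalized counts of the 10 RGS genes in all 23 libraries, 1 panel per gene, from left to right for exercised fathers, sedentary fathers, and offspring of exercised and of sedentary fathers. Points are libraries and the black bars are the mean and SD of each group. Rgs4 lies between 5096 and 5594 in exercised fathers and between 6174 and 7151 in sedentary fathers, and 1 sedentary father stands at 1031 for Rgs16.

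Rgs16 differed most between fathers on average, and the difference rested on single libraries. This R4 member (ENSMUSG00000026475.7, chromosome 1, 153740349 to 153745468, plus strand), which acts on Gi/o and Gq and is known to be abundant in the thalamus, had 262, 275, 346 and 353 normalized counts in exercised fathers, against 241, 300, 509 and 1031 in sedentary fathers. The lowest and the highest value both belonged to sedentary fathers, and all 4 exercised fathers lay between them. The log2 difference was -0.53, with means of 309 ± 47.4 in exercised fathers and 520.2 ± 359 in sedentary fathers (± SD, n = 4 per group).

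Part of the thalamus and habenula list was high where Rgs16 was high. The summed level of the list was 17097 and 23419 normalized counts in sedentary fathers of replicates 3 and 4, those with the high Rgs16 values. Of the 12 markers, 6 were higher in both of these libraries than in every other father, and 7 were highest in replicate 4. Tcf7l2, a thalamic transcription factor, lay between 231 and 433 in the exercised fathers, against 1848 in that library. The habenula genes Tac2, Pou4f1 and Nwd2 did not follow, being highest in sedentary father replicate 2 at 240, 158 and 2902, where Rgs16 had 300, and Calb2 and Zic1 were highest in an exercised father. The mean log2 level of the list, used as a covariate, was 9.41 in sedentary father replicate 3, below the 9.47 of replicate 2, and 10.2 in replicate 4. Without sedentary fathers replicates 3 and 4 the log2 difference of Rgs16 was 0.19, the opposite direction. That turn follows from their Rgs16 values, the highest of all fathers, and the part of the markers in it was not tested. With the marker level as a covariate the log2 difference of Rgs16 was 0.05. Without the sedentary fathers of replicates 1 and 2, which were low in choroid plexus markers, it was -1.24. For Rgs4 and Rgs17 the differences with the thalamus covariate were -0.25 and -0.19. With the same covariate those of Rgs8, Rgs6 and Rgs12 were -0.08, 0.02 and -0.03, the last 2 with their direction turned.

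Rgs2 and Rgs10 lay on the other side. Rgs2, which prefers Gq and whose transcript is induced by neuronal activity (ENSMUSG00000026360.9, chromosome 1, 143999338 to 144004161, minus strand), had 1511, 1445, 1643 and 1566 normalized counts in exercised fathers, against 1401, 1429, 1448 and 1456 in sedentary fathers. Of the exercised fathers, 3 of 4 exceeded every sedentary father, and the log2 difference was 0.10. Rgs10, an R12 member found in microglia as well as neurons (ENSMUSG00000030844.11, chromosome 7, 128373621 to 128418758, minus strand), had 757, 698, 819 and 835 normalized counts in exercised fathers, against 703, 694, 704 and 689 in sedentary fathers. Again 3 of 4 exercised fathers exceeded every sedentary father, with a log2 difference of 0.15, and the sedentary fathers spanned a range of only a few percent. The 6 microglia markers had summed levels of 12317 to 13314 in exercised and 12175 to 13021 in sedentary fathers, which overlapped.

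The remaining genes overlapped between exercised and sedentary fathers. Rgs6, which like Rgs7 works as a complex with Gnb5 (ENSMUSG00000021219.16, chromosome 12, 82588292 to 83162056, plus strand), had 752, 644, 758 and 837 normalized counts in exercised fathers, against 644, 955, 859 and 953 in sedentary fathers, a log2 difference of -0.18. With the thalamus and habenula covariate it was 0.02. Rgs7 (ENSMUSG00000026527.13, chromosome 1, 175059087 to 175492500, minus strand) had 3000, 2971, 2943 and 2925 in exercised fathers, against 3193, 3067, 2855 and 3106 in sedentary fathers, a log2 difference of -0.04, which was 0.05 with the GC trend taken out. Its exercised fathers were the tightest group of any of the 10 genes apart from the sedentary fathers for Rgs10, with coefficients of variation of 1.11% and 1.03%.

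Rgs12, a large R12 member with further protein-binding domains (ENSMUSG00000029101.14, chromosome 5, 34949445 to 35039644, plus strand), had 1461, 1781, 1546 and 1565 normalized counts in exercised fathers, against 1602, 1642, 1523 and 1504 in sedentary fathers. Exercised fathers held both its lowest and its highest value, and the log2 difference was 0.02, with a range from -0.04 to 0.07 over the 24 settings. Rgs20, the RZ member first described as a Gz regulator (ENSMUSG00000002459.17, chromosome 1, 4909576 to 5070285, minus strand), had 680.2, 594, 633 and 650.3 in exercised fathers, against 629, 729, 605 and 586 in sedentary fathers, a log2 difference of 0.01 with a range from -0.08 to 0.10. Over the 10 genes, 6 were lower and 4 higher on average in exercised fathers, with a median log2 difference of -0.07, against 0.003 over all 17493 genes, of which 8542 were lower.

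**Figure D2:**
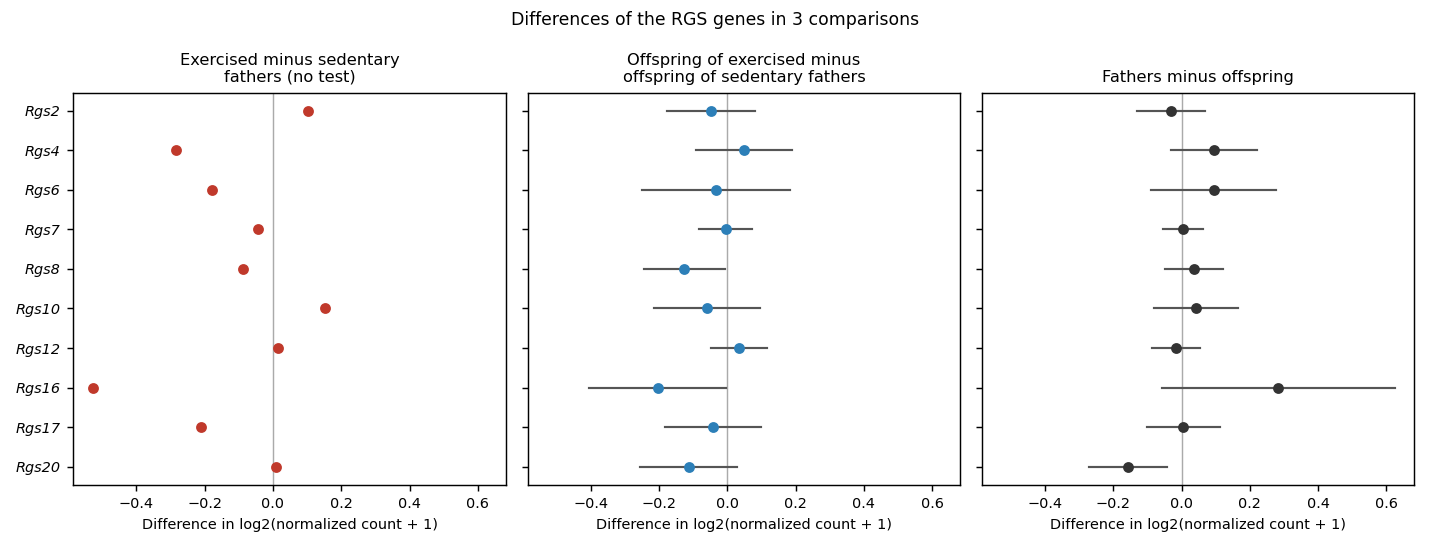
Differences of the 10 RGS genes in log2(normalized count + 1), for exercised minus sedentary fathers, for offspring of exercised minus offspring of sedentary fathers, and for fathers minus offspring. Points are fitted differences, and lines in the middle and right panels are 95% intervals from limma; the left panel carries none because the genes were chosen from it. Rgs4 stands at -0.28 and Rgs17 at -0.21 in the left panel, against 0.05 and -0.04 in the middle one.

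In the offspring, none of the 10 genes passed the test between the lines, and neither Rgs4 nor Rgs17 showed the separation seen in their fathers' generation. Across 17522 genes, 0 passed limma's test on log2(normalized count + 1) with Benjamini-Hochberg adjustment (0.0%), with 1726 at an unadjusted p under 0.05 (9.85%). The count test of edgeR also called 0, and DESeq2 called 48, none of them among the 10, of which it left Rgs6, Rgs10, Rgs16 and Rgs20 without an adjusted p. The groups did not overlap for 0.148% of all genes and for 0 of the 10. Exercised and sedentary fathers, tested the same way, gave 0 of 17493 genes with limma (0.0%), 1402 at an unadjusted p under 0.05 (8.01%), 0 with edgeR and 66 with DESeq2.

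Rgs4 had a lowest, median and highest value of 5125, 5305 and 6468 normalized counts in offspring of exercised fathers, against 4668, 5280 and 6483 in offspring of sedentary fathers. The groups overlapped almost entirely, with a log2 difference of 0.05 (95% interval -0.09 to 0.19, limma adjusted p = 0.823). Rgs17 had 3083, 3542 and 4154 in offspring of exercised fathers, against 3414, 3586 and 4052 in offspring of sedentary fathers. Offspring of exercised fathers held both the lowest 3 values and the highest one, and the log2 difference was -0.04 (interval -0.18 to 0.10, limma adjusted p = 0.857). With the GC trend taken out it was 0.01, on the other side of 0.

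Rgs8 and Rgs16 had the smallest p of the 10 in the offspring, and neither passed after adjustment. Rgs8 had 3808, 4024 and 4075 normalized counts in offspring of exercised fathers, against 3794, 4312 and 5141 in offspring of sedentary fathers. The spread was unequal, with a coefficient of variation of 2.77% in offspring of exercised fathers and 10.8% in offspring of sedentary fathers, whose top 2 values were 5141 and 4863. The log2 difference was -0.13 (SE 0.06, 95% interval -0.24 to -0.01, limma adjusted p = 0.490), and 41 of 56 pairs of libraries had the lower value in the offspring of exercised fathers. Those 2 highest libraries were replicates 4 and 1, with summed choroid plexus markers of 3452 and 3137 normalized counts, the lowest of their group. In offspring of exercised fathers, the highest Rgs8 values of 4075 and 4044 were those of replicates 3 and 7, whose marker sums of 3656 and 5756 were likewise the lowest. Fathers did not share this order, since the sedentary fathers lowest in these markers, replicates 1 and 2 with sums of 2507 and 8466, had Rgs8 values of 4314 and 4212, the lowest of their group. Over the 23 libraries Rgs8 and the choroid plexus markers gave r = -0.45 and rho = -0.17 (adjusted p = 0.277 and 0.684 by permutation), with 0.73 in fathers, -0.66 in offspring and -0.27 without the 2 libraries farthest out. The same 2 libraries with the highest Rgs8 also had the highest sums of dentate granule cell markers, 26381 and 26308, where the other offspring had 19342 to 24648. Their sums of hippocampal neuron markers, 321405 and 312806, were the highest too. Offspring of exercised fathers did not share the dentate order. Their replicates 3 and 7 had dentate sums of 21181 and 20773, and replicate 5 had the highest, 23850. With the choroid plexus markers as a covariate the difference of Rgs8 was -0.12. The part of the dentate granule cell and hippocampal neuron markers was not tested.

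Rgs16 had 238, 282 and 321 normalized counts in offspring of exercised fathers, against 261, 335 and 424 in offspring of sedentary fathers. Most values lay on the lower side in offspring of exercised fathers, in 42 of 56 pairs, and the log2 difference was -0.20 (SE 0.10, 95% interval -0.40 to -0.004, limma adjusted p = 0.501). With the thalamus and habenula covariate it was -0.12 (limma adjusted p = 0.661). Over all genes, 5.48% were lower at an unadjusted p under 0.05, against these 2 of 10. Among offspring of exercised fathers, 3 pairs of libraries share the first part of their title, whose meaning the labels do not give, and with a correlation of 0.574 estimated within such pairs neither gene had an unadjusted p under 0.05.

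The other 6 genes differed by less. Rgs20 had 610.5, 668 and 813 normalized counts in offspring of exercised fathers, against 647, 728 and 815 in offspring of sedentary fathers (log2 difference -0.11, limma adjusted p = 0.577). Rgs10 had 563, 738 and 786 in offspring of exercised fathers, against 665, 718 and 822 in offspring of sedentary fathers, and the 2 lowest libraries of all were offspring of exercised fathers (log2 difference -0.06, limma adjusted p = 0.810). Rgs2 had 1326, 1510.3 and 1728 in offspring of exercised fathers, against 1453, 1503 and 1772 in offspring of sedentary fathers (-0.05, limma adjusted p = 0.815). None of these groups separated.

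Rgs12 had 1526, 1595 and 1722 normalized counts in offspring of exercised fathers, against 1494, 1567 and 1763 in offspring of sedentary fathers (log2 difference 0.03, limma adjusted p = 0.790). Rgs6 had 591, 742 and 902 in offspring of exercised fathers, against 575, 761 and 909 in offspring of sedentary fathers (-0.03, limma adjusted p = 0.931). Rgs7 had 2782, 2981 and 3198 in offspring of exercised fathers, against 2724, 3012 and 3200.0 in offspring of sedentary fathers (-0.01, limma adjusted p = 0.976). The 95% interval of Rgs7, -0.08 to 0.07, was the narrowest of the 10 and that of Rgs6, -0.25 to 0.18, the widest. Over the 10 genes, 8 were lower and 2 higher on average in offspring of exercised fathers, with a median log2 difference of -0.04. Over all 17522 genes tested the median was -0.001, and 8837 were lower. The differences of Rgs6, Rgs7 and Rgs17 changed sign under some settings.

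Fathers and offspring were compared over all 23 libraries, with line (exercised or sedentary) as a covariate. Generation, an age of 7 against 5.5 months and any difference in handling cannot be told apart in this design. The fit took all libraries as independent, although some offspring of exercised fathers share the first part of their title. The p-values of this comparison may thus be too small, its intervals too narrow and its counts of genes passing too high. None of the 10 genes passed, while 220 of 17790 genes did with limma (1.24%), 76 of them higher and 144 lower in fathers. At an unadjusted p under 0.05, the share was 17.0% of all genes and 1 of the 10. The groups did not overlap for 0.0393% of all genes and for 0 of the 10.

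That gene was Rgs20, which was lower in fathers, where 8.89% of all genes were lower at that level. Its 8 values in fathers, given above, ran between 586 and 729 normalized counts, against 610.5 to 815 in the 15 offspring. Of the 8 fathers, 3 lay below every one of the offspring. The means were 638 ± 47.9 in fathers (SD, n = 8) and 714 ± 70.9 in offspring (SD, n = 15), a log2 difference of -0.16 (SE 0.06, 95% interval -0.27 to -0.04, limma adjusted p = 0.135). It was -0.09 in the exercised line alone and -0.22 in the sedentary line alone. The test of the difference between the lines, which is that of the exercise contrast between generations, passed for 0 of 17790 genes with limma, with 1014 at an unadjusted p under 0.05.

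Rgs16 had the largest positive difference, with 415 ± 263 normalized counts in fathers (SD, n = 8) and 308 ± 48.0 in offspring (SD, n = 15). The log2 difference was 0.28 (limma adjusted p = 0.399), and -0.03 without the sedentary fathers of replicates 3 and 4, which held the highest Rgs16 values. Rgs4 had 5905 ± 702 in fathers and 5527 ± 542 in offspring (0.10, limma adjusted p = 0.448), with -0.07 in the exercised line and 0.26 in the sedentary line (limma adjusted p = 0.203 for the sedentary line). Rgs6 stood at 0.09, Rgs8 and Rgs10 at 0.04, Rgs2 at -0.03, Rgs12 at -0.02, and Rgs7 and Rgs17 at 0.01. Rgs17 averaged 3604 ± 294 in fathers and 3603.5 ± 343.5 in offspring, with a 95% interval of the log2 difference from -0.10 to 0.11.

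Among the 10 genes, Rgs4 had the highest level per length. Divided by the length of the longest annotated transcript and averaged over the 23 libraries, Rgs4 had 1924 ± 209 normalized counts per kilobase (SD, n = 23), followed by Rgs10 with 823 ± 75.3 and Rgs7 with 816 ± 33.7. Rgs2 had 500.1 ± 38.3, Rgs8 496 ± 39.2 and Rgs17 440.0 ± 39.1, then came Rgs20 with 324 ± 34.2 and Rgs12 with 290.3 ± 15.2. Rgs16 with 147 ± 69.2 and Rgs6 with 137 ± 20.3 were lowest. Among neighbours in this order, Rgs4 and Rgs10 did not overlap over the libraries, and neither did Rgs7 and Rgs2. Every other pair of neighbours overlapped in range, although in each of the 23 libraries Rgs17 exceeded Rgs20. With the combined length of all exons as divisor, 3 genes kept their rank, and Rgs10 moved to rank 5 while Rgs7 moved to rank 2.

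**Figure D3:**
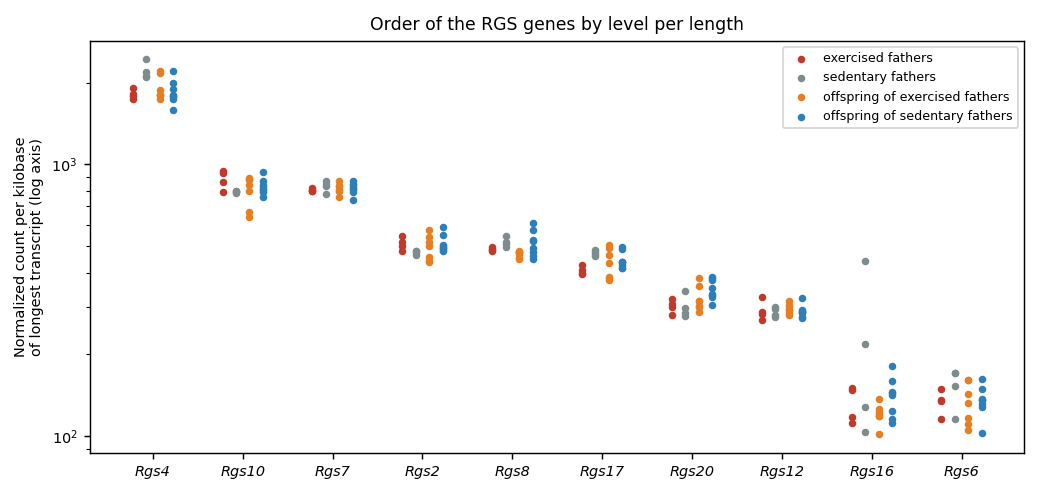
Levels of the 10 RGS genes per kilobase of their longest annotated transcript, on a log axis, with 1 point per library coloured by group. Genes run from the highest mean level to the lowest. Rgs4 lies above every other gene in all 23 libraries, and Rgs16 and Rgs6 share the lowest range apart from 2 sedentary fathers with high Rgs16.

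The genes also differed in how much they varied between libraries. Over all 23 libraries the coefficient of variation was 4.12% for Rgs7, 5.24% for Rgs12, 7.65% for Rgs2 and 7.92% for Rgs8. It was 8.89% for Rgs17, 9.16% for Rgs10, 10.6% for Rgs20, 10.9% for Rgs4, 14.7% for Rgs6 and 46.9% for Rgs16. For Rgs16, the 4 sedentary fathers alone had 69.1%, against 8.79% in the offspring of exercised fathers.

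Some of the genes varied together from library to library, whatever the group. Each value was taken as a deviation from its group mean on the log2 scale, and 85 relations of the 10 genes with each other and with 4 marker levels were computed over the 23 libraries, with p from 100000 permutations of libraries within groups. Rgs6 and Rgs17 correlated at r = 0.75 (permutation p = 6e-05, rho = 0.80, adjusted p = 0.003 and 0.004 over the 85). The relation held at r = 0.72 in the 8 fathers and 0.84 in the 15 offspring, and was 0.89 without the 2 libraries farthest out. Rgs2 and Rgs10 correlated at r = 0.74 (permutation p = 0.0015, rho = 0.80, adjusted p = 0.033 and 0.009), with 0.83 in fathers and 0.73 in offspring, and 0.74 without the 2 libraries farthest out. These were the 2 of 45 pairs of the 10 genes with an adjusted p under 0.05 for r, and the median absolute r over the 45 was 0.22. That median was ordinary, since the median absolute r with 13052 genes ran from 0.14 for Rgs12 to 0.36 for Rgs10. Of those genes, 0.82% had an absolute r over 0.7 with Rgs6, 1.26% with Rgs17, 0.153% with Rgs2 and 5.39% with Rgs10. Libraries share their dissection, depth and RNA preparation across genes, and the part of these in the correlations was not tested. The permutations also took libraries of a group as exchangeable. Some offspring of exercised fathers share the first part of their title and may not be, so these p-values may be too small.

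Rgs17 followed the neocortex markers, among them Tbr1, Rorb, Cux2, Fezf2 and Lamp5. The correlation was r = 0.87 over the 23 libraries (rho = 0.75, adjusted p = 0.003 and 0.028 over the 85 relations, by permutation), and 0.81 without the 2 libraries farthest out. It was 0.93 in the 15 offspring and 0.19 in the 8 fathers. In offspring of exercised fathers, replicates 1 and 3 had the highest marker sums, 12351 and 11777 normalized counts, and the highest Rgs17 values, 4022 and 4154. Replicates 5, 6 and 7 had the lowest sums, 8724, 8567 and 8987, and the lowest Rgs17 values, 3166, 3136 and 3083. Of these, replicates 5 and 6 share the first part of their title.

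Rgs6 and Rgs4 also went with these markers, at r = 0.71 and 0.68 over the 23 libraries (adjusted p = 0.022 and 0.035 by permutation). For Rgs6, r was 0.87 in offspring and 0.17 in fathers, and for Rgs4 it was 0.81 in offspring and -0.23 in fathers, and the rho of Rgs4 over all libraries, 0.49, had an adjusted p of 0.205 by permutation. With the neocortex markers as a covariate, the differences between exercised and sedentary fathers were -0.21 for Rgs17 and -0.30 for Rgs4, and those between the offspring groups were -0.03 and 0.06. Rgs6 also went with the thalamus and habenula markers, at r = 0.61 (rho = 0.68, adjusted p = 0.048 and 0.028 by permutation), with 0.91 in fathers, 0.40 in offspring and 0.50 without the 2 libraries farthest out. Rgs16 correlated with them at r = 0.79 (rho = 0.64, adjusted p = 0.033 and 0.039 by permutation), and 0.50 without the 2 libraries farthest out.

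**Figure D4:**
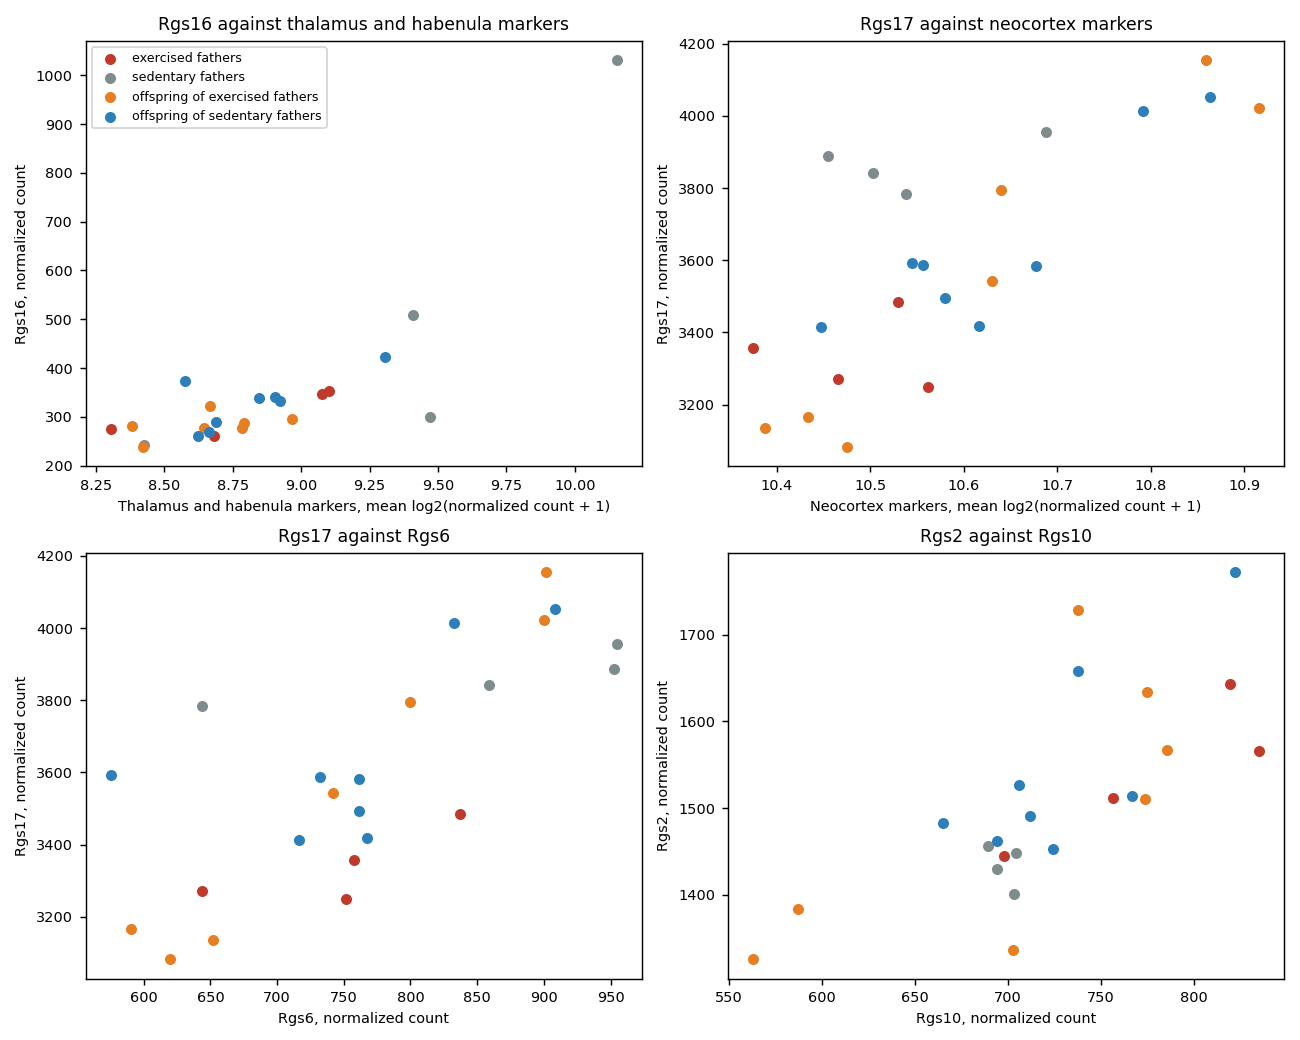
Levels of RGS genes in the 23 libraries, coloured by group, against the mean log2 level of thalamus and habenula markers (Rgs16, top left), that of neocortex markers (Rgs17, top right), Rgs6 (Rgs17, bottom left) and Rgs10 (Rgs2, bottom right). Each point is 1 library, and the axes show values before group means were subtracted. The 4 sedentary fathers lie above the 4 exercised fathers for Rgs17. Their neocortex marker levels run from 10.45 to 10.69, against 10.37 to 10.56 in exercised fathers, and the part of the markers was not tested.

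The genes whose deviations were most like those of each RGS gene were named by rank, among 13052 genes with a mean of at least 100 normalized counts over the 23 libraries. For Rgs6 they were Cux2, itself a neocortex marker, Rasgef1b and Cux1 (r = 0.89, 0.88 and 0.88), and for Rgs17 Cobl, Mef2c and Bmp3 (0.88, 0.88 and 0.87). For Rgs16 they were Rab37, Zfp385a and Adra1b (0.93, 0.92 and 0.92), for Rgs8 Dapk1 and Tanc1 (0.87 and 0.86), and for Rgs4 Gm11549, Osbpl1a and Cntn6 (0.80, 0.80 and 0.79). For Rgs10 they were Eif1, Tprgl and Gstp1 (0.90, 0.88 and 0.87), for Rgs2 Tmem158, Dlx6 and Tmem130 (0.79, 0.78 and 0.78), and for Rgs7 Sept7, 9330121K16Rik and Srpk2 (0.89, 0.87 and 0.82). Rgs12 had Ocel1, Lhx2 and Ypel1 (0.72, 0.71 and 0.71), and Rgs20 had Ncald, Tbc1d9b and Bmpr1b (0.76, 0.74 and 0.73). The number of close partners differed, since 5.39% of the genes had an absolute r over 0.7 with Rgs10 and 0.0536% with Rgs12.

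Several of the genes are close neighbours. Of the 21 genes with an RGS symbol, 11 lie on chromosome 1, among them 6 of the 10 described here. Rgs8 and Rgs16 are 40.0 kb apart, Rgs4 lies 45.7 kb from Rgs5, and Rgs2 lies 134 kb from Rgs13. None of the 10 shares exon sequence on the same strand with another gene, whereas Rgs6, Rgs8, Rgs12, Rgs16 and Rgs20 overlap genes on the opposite strand, and the sources used here do not give whether reads were counted by strand.

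The other 11 RGS genes did not pass in any comparison, and 8 of them had enough reads to be tested. Rgs14, the marker of hippocampal area CA2 that limits synaptic plasticity there, had 3421 ± 57.7 normalized counts in exercised fathers and 3023 ± 189 in sedentary fathers (± SD, n = 4 per group), with no overlap (log2 difference 0.18, SE 0.05, limma adjusted p = 0.539). Rgs9, a relative of Rgs7 best known from striatum, had 440 ± 23.5 in offspring of exercised fathers (SD, n = 7) and 398 ± 23.5 in offspring of sedentary fathers (n = 8), a log2 difference of 0.14 (limma adjusted p = 0.431). Rgs5, a gene of pericytes, had 3175 ± 511.96 in exercised fathers and 3594 ± 219 in sedentary fathers, and Rgs11 had 574 ± 165 in exercised fathers and 477 ± 79.0 in sedentary fathers (± SD, n = 4 per group). Rgs3 and Rgs19 averaged 1202 and 670 normalized counts over all libraries, and Rgs22 and Rgs13 averaged 79.8 and 27.3. Rgs1 and Rgs18 averaged 4.06 and 2.08, and Rgs21 was above 0 in a single library, an exercised father with a value of 1.

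Genes that work with RGS proteins were taken from lists of partners, G protein subunits, receptors, effectors and other regulators. With the other RGS genes these made 123 genes, of which 115 were tested and 0 passed with limma in any of the 3 comparisons. DESeq2 called 1 of them between exercised and sedentary fathers and 3 between fathers and offspring, where limma called 1 with the GC trend taken out. Between exercised and sedentary fathers, 8 were higher and 3 lower at an unadjusted p under 0.05, a share of 9.57% against 8.01% of all genes. Of them, Rgs7bp, which anchors Rgs7 complexes at the membrane, had 11755 ± 414 normalized counts in exercised fathers and 13124 ± 852 in sedentary fathers (± SD, n = 4 per group), a log2 difference of -0.16. Grk5, a receptor kinase with an RGS homology domain, had 491 ± 23.1 in exercised fathers and 386 ± 39.0 in sedentary fathers (0.35), and Gna11, an alpha subunit of the Gq class, 6349 ± 362 in exercised fathers and 5816 ± 84.7 in sedentary fathers (0.12). The smallest limma adjusted p among these lists was 0.539.

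In the offspring, 3 of the 115 were higher and 4 lower at an unadjusted p under 0.05, 6.09% against 9.85% of all genes. Gnai3, a Gi alpha subunit, stood at -0.12, Gnal at -0.14, the exchange factor chaperone Ric8b at -0.09 and the somatostatin receptor Sstr1 at 0.25 on the log2 scale, with limma adjusted p between 0.456 and 0.490. Between fathers and offspring, 7 were higher and 9 lower, 13.9% against 17.0% of all genes. Htr1a, a serotonin receptor coupled to Gi/o, had 1523 ± 184 normalized counts in fathers (SD, n = 8) and 1802 ± 190 in offspring (SD, n = 15), a log2 difference of -0.24 with a limma adjusted p = 0.058, and Gnaz, the alpha subunit known as a target of Rgs17 and Rgs20, stood at -0.09 (limma adjusted p = 0.092). The difference of the exercise contrast between fathers and offspring was tested for all genes and called 0 of 17790 with limma, with 1014 at an unadjusted p under 0.05, and Grk5 had the smallest p of the lists (0.56, limma adjusted p = 0.790).

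In the authors' deposited table for the offspring, the adjusted p of the 10 genes lay between 0.443 for Rgs8 and 0.985 for Rgs7. The authors' deposited table for the fathers gives unmoderated log2 fold changes of exercised over sedentary of -0.23 for Rgs4, -0.19 for Rgs17 and -0.61 for Rgs16. It gives 0.05 for Rgs2, -0.05 for Rgs8 and 0.11 for Rgs10. Those of Rgs16 and Rgs20 were larger in size than the limma differences above, and those of the other genes were smaller. The authors' adjusted p in fathers was 0.999995 for each of the 10 genes. These tables list 14 genes in fathers and 11 in offspring with an adjusted p under 0.05, none of the 10 among them in the authors' deposited tables.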

How the data were processed

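The authors deposited normalized counts per gene for fathers and offspring, a signal on the count scale in which, as read from the values, each library's gene counts were divided by 1 size factor. Multiplying back gave whole reads within 0.1 for 100% of the values in every library, and the libraries' median ratios to the geometric mean, 1.003 to 1.006, place both tables on 1 scale. Libraries were stranded and made from 500 ng of oligo-dT-enriched RNA with 15 PCR cycles, per the labels' protocols. GRCm38, DESeq2 1.10, RSEM 1.2.28 and STAR 2.5.2a are named in the submitters' processing notes, with no roles. Per the file headers, the authors' comparison tables give each gene a log2 fold change and a p-value, raw and adjusted. The file titles mention an outlier left out but do not name it.

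limma 3.58.1 in R 4.3.3 was fitted to log2(normalized count + 1), two-sided, with Benjamini-Hochberg adjustment over all genes and a threshold of 0.05. Genes entered with at least 10 normalized counts in at least 4 (fathers), 7 (offspring) or 8 (generations) libraries. limma was chosen because the deposited values are normalized, and edgeR 4.0.16 and DESeq2 1.42.0 on recovered reads were alternatives, as were other pseudocounts, filters, scalings, covariates and left-out libraries. The limma, edgeR and DESeq2 fits of the 3 comparisons were tested on simulated data. The simulated libraries held no differences in tissue content, unlike the real ones, so that test does not show how the fits behave here. Among 61 pairs of libraries within groups, chi-square per degree of freedom was at least 5.99, so none agreed within sampling noise. The barcode series AD21 holds 1 exercised father and 2 offspring of sedentary fathers, 1 group in each generation, so no value within it exists. Coordinates and lengths come from GENCODE M21 (GRCm38), and promoters from RefSeq (GRCm38.p6). Because no molecular identifiers are described, reads are not counted as independent molecules. The members, gene lists and tests were chosen with earlier results of these data known. Named were all RGS genes, the 3 genes most like each member and, of the genes with the smallest p per list and comparison, those whose values were chosen after being seen. A few genes that these rules name are not reported here.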

Additional observations from a re-analysis of the deposited data

Results flagged for a closer look

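Over the 10 genes and the 8 other RGS genes with enough reads, 72 sets of libraries of 1 gene in 1 group were examined for a library far from the others, and 3 stood out, where chance gives about 1 in 20. Rgs12 was high at 1763.23 normalized counts in replicate 2 of the offspring of sedentary fathers, against 1597 in the next library of that group. Rgs5 was high at 3996.33 in replicate 1 of the offspring of exercised fathers, against 3420.0 in the next. Rgs9 was high at 461.4 in replicate 4 of the exercised fathers, against 398 in the next.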

How the results depend on the processing

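Counts of calls depended on the tool and on single libraries. Between exercised and sedentary fathers limma called 0 genes, DESeq2 called 66, and limma without the 2 sedentary fathers low in choroid plexus markers called 1. Between the offspring groups limma called 0 and DESeq2 48, and leaving out each replicate gave 0 to 1, the 1 without offspring of sedentary fathers replicate 1. The 220 genes between fathers and offspring became 138 without a filter, 738 with DESeq2, 145 without the AD21 barcodes, 38, 380 and 401 with the thalamus, choroid plexus or neocortex covariate, 17 without the 2 sedentary fathers high in thalamus markers, and 3 in the exercised line and 3 in the sedentary line alone. Leaving out each replicate gave 47 to 347, with 47 and 76 without sedentary fathers replicates 3 and 4, 70 without exercised fathers replicate 3, and 347 without offspring of sedentary fathers replicate 1. The cause was not tested. The neocortex covariate, and the removal of those 2 fathers from this last comparison, were added after seeing the data. With the combined exon length, 3 of the 10 genes kept their rank.

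Small differences changed sign. Between exercised and sedentary fathers, log2 differences ranged over the alternatives from -0.081 to 0.054 for Rgs7, from -0.040 to 0.066 for Rgs12, from -0.084 to 0.10 for Rgs20, from -0.31 to 0.024 for Rgs6 and from -1.24 to 0.19 for Rgs16. Between the offspring groups the changes were Rgs17 with the GC trend removed (0.0055), Rgs6 with the thalamus covariate (0.027) and Rgs7 with TMM factors (0.0010), edgeR (0.00025) and the GC trend removed (0.042). Leaving out each replicate gave -0.088 to 0.019 for Rgs6 and -0.025 to 0.012 for Rgs7. Between fathers and offspring, Rgs17 turned with DESeq2 (-0.00025), without the AD21 barcodes (-0.010), with the thalamus covariate (-0.027), in the exercised line (-0.081) and without the 2 fathers high in thalamus markers (-0.016). The thalamus covariate also turned Rgs6 (-0.030), Rgs16 (-0.017) and Rgs12 (0.00050), and leaving out those 2 fathers turned Rgs16 (-0.033) and Rgs12 (0.00030). In the exercised line alone Rgs2 (0.046), Rgs7 (-0.015) and Rgs4 (-0.075) turned, in the sedentary line Rgs10 (-0.060), with the neocortex covariate Rgs10 (-0.012), and with TMM factors Rgs7 (-1.9e-05). Leaving out each replicate gave -0.0082 to 0.026 for Rgs17, -0.0071 to 0.018 for Rgs7 and -0.041 to 0.0012 for Rgs12. None of the 10 genes passed between the offspring groups or between generations under any setting. Of the pathway genes, limma called 1 between fathers and offspring with the GC trend removed, and 1 each without exercised fathers replicate 4 and offspring of sedentary fathers replicates 1 and 3. No paired analysis was possible because the labels carry no replicate numbers shared between the groups. Between the offspring groups, adjusted p ranged from 0.307 to 0.717 for Rgs8 and from 0.353 to 0.732 for Rgs16 over the alternatives. Rgs1, Rgs18 and Rgs21 had too few reads to be tested.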
